A study of Mus musculus with 9 samples.

Results

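The 51 genes described here encode the contractile machinery of striated muscle and the proteins that excite and fuel it. They are actins, myosin heavy and light chains, troponins, giant filament and Z-disc proteins, calcium-handling proteins of the sarcoplasmic reticulum, and muscle energy and hormone genes. They were taken by symbol from a table of 21884 genes, and all 51 were found, 33 by the symbol in the table and 18 by the mouse symbol of the Ensembl identifier. The samples were lungs of male BALB/c mice, aged 6 weeks at the start, with 3 mice in each of 3 groups. OVA+PM2.5 mice received fine particulate matter as nasal drops every day from 7 days before the start, on top of the ovalbumin protocol. OVA mice received the ovalbumin protocol alone, which was 50 µg ovalbumin with 1 mg aluminium hydroxide into the peritoneum on days 0, 7 and 14 and 400 µg ovalbumin into the nose on days 21 to 27. Naive mice received saline in place of ovalbumin. All lungs were taken on day 28 for RNA. No batch is labelled, and p-values measure only the spread between these samples.

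Striated muscle contracts when calcium released through ryanodine receptors binds troponin C and lets myosin heads pull on actin filaments. Most of these proteins exist as isoforms that are made in different muscles: fast skeletal fibres, slow skeletal fibres, atria and ventricles each have their own set. In the mouse, cardiac muscle cells also line the pulmonary veins inside the lung, whereas skeletal muscle lies outside it, in the diaphragm, chest wall, neck and oesophagus. The isoform present therefore says which kind of muscle a transcript is typical of.

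Many of these genes are driven by the same families of transcription factors: serum response factor binds the CArG box, MEF2 proteins bind the MEF2 site, and the myogenic E-box factors can bind CAGCTG. Promoters of 6 members are shown because the results turn on these genes, namely the skeletal actin Acta1, the perinatal myosin Myh8, the atrial light chain Myl7, the atrial hormone Nppa, and the widely raised members Lrrc39 and Apobec2. Each runs from 250 bases before to 50 bases after the start site, from RefSeq on GRCm38.p6, 5′ to 3′ on the strand of the gene, with matches to the CArG box, the MEF2 site or CAGCTG in capitals.
Acta1: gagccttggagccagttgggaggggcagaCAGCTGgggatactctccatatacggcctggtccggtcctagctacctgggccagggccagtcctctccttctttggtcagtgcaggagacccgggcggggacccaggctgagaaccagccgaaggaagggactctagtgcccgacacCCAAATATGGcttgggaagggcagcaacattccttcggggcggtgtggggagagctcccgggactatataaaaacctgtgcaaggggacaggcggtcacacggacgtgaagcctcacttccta
Myh8: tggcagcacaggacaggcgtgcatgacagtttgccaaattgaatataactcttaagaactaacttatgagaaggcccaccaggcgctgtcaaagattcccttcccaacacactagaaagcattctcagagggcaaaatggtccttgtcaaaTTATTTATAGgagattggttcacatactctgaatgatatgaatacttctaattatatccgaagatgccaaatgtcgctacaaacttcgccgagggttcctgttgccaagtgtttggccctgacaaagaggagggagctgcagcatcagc
Myl7: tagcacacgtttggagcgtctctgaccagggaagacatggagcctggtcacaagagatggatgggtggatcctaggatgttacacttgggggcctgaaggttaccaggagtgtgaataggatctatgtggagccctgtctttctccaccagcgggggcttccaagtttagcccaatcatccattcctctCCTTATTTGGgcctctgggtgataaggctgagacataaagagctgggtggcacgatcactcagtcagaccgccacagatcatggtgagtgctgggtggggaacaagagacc
Nppa: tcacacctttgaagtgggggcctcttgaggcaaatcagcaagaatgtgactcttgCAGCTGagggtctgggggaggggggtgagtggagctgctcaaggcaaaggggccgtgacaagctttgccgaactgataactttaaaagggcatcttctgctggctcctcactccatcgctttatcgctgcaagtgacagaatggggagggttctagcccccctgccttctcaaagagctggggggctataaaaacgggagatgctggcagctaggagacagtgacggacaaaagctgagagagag
Lrrc39: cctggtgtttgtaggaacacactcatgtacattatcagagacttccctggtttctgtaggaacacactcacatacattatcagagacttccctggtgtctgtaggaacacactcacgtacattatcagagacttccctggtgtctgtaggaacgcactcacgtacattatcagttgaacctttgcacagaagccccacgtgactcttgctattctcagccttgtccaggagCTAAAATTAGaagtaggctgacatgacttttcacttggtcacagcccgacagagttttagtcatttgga
Apobec2: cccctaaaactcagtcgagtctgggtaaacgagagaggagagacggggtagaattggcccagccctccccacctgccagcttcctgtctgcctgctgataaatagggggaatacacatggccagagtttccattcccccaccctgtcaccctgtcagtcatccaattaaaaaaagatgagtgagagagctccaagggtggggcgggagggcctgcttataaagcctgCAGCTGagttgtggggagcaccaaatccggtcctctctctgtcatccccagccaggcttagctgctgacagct
These windows lie at chr8:123894726-123895025 on the minus strand for Acta1, chr11:67276874-67277173 on the plus strand for Myh8, chr11:5898733-5899032 on the minus strand for Myl7, chr4:148000472-148000771 on the plus strand for Nppa, chr3:116562733-116563032 on the plus strand for Lrrc39, and chr17:48432679-48432978 on the minus strand for Apobec2. Counting from the first base of the match, the CArG box begins 73 bases before the start site in Acta1 and 61 bases before it in Myl7. The MEF2 site begins 99 bases before it in Myh8 and 19 bases before it in Lrrc39. CAGCTG begins 221 bases before it in Acta1, 195 in Nppa and 23 in Apobec2. Of the 51 members, 43 had a RefSeq promoter, and both strands were searched and a base could belong to more than one motif. A CArG box was in 7 of 43 members (16.3%), among 488 of 27025 genes (1.81%). The MEF2 site was in 9 of 43 members (20.9%), among 1001 of 27025 genes (3.70%). CAGCTG was in 21 of 43 members (48.8%), among 4944 of 27025 genes (18.3%). These matches describe the letters in a window of 300 bases and were not related to the levels.

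Levels are given as the deposited FPKM, fragments per kilobase of transcript scaled to the depth of the library. Whole fragments could be recovered from them for all 17298 genes that were above 0 in 2 or more libraries, with a tolerance of 0.001, giving totals of 12159535 to 15764579 fragments per library. The length behind each value matched the sum of all annotated transcripts of the gene for 95.5% of 17256 genes, within 1%. For the members this sum was 1 to 22.7 times the length of the principal transcript, with a median of 2.78, so FPKM compares 1 gene across libraries but not 1 gene with another. Isoforms are therefore compared as fragments per kilobase of principal transcript.

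Muscle transcripts were unevenly spread over the libraries. The 51 members took 9.34%, 2.35% and 0.275% of all fragments in OVA+PM2.5 replicates 1, 2 and 3. They took 0.0300%, 0.151% and 0.0257% in OVA replicates 1, 2 and 3, and 0.0185%, 0.0312% and 0.133% in Naive replicates 1, 2 and 3. Every OVA+PM2.5 library was above every OVA and Naive library, by very different amounts, and OVA replicate 2 and Naive replicate 3 stood above the rest of their groups. In bulk tissue, more cells of a type and more RNA per cell cannot be told apart. Replicate 1 of the OVA+PM2.5 group held the highest level of 35 members and replicate 2 that of 15, and 1 member, the fast troponin C gene Tnnc2, was listed at 0 in every library. The level was above every OVA and Naive library for 41 members in replicate 1, 36 in replicate 2 and 32 in replicate 3, and for 19 of the 51 members in all 3. Among features at 0.5 FPKM or more in at least 3 libraries, it was so in all 3 for 16 of 35 members and for 521 of 12982 genes (4.01%). That count of members is set partly by the filter, since 18 of the 35 passed it only through the OVA+PM2.5 libraries. The count is therefore not read against the share of all genes. The level was over 10 times the highest OVA or Naive library for 34, 23 and 11 members in replicates 1, 2 and 3. For these counts in single libraries the share of all genes was not counted, so they describe the members only.

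**Figure D1:**
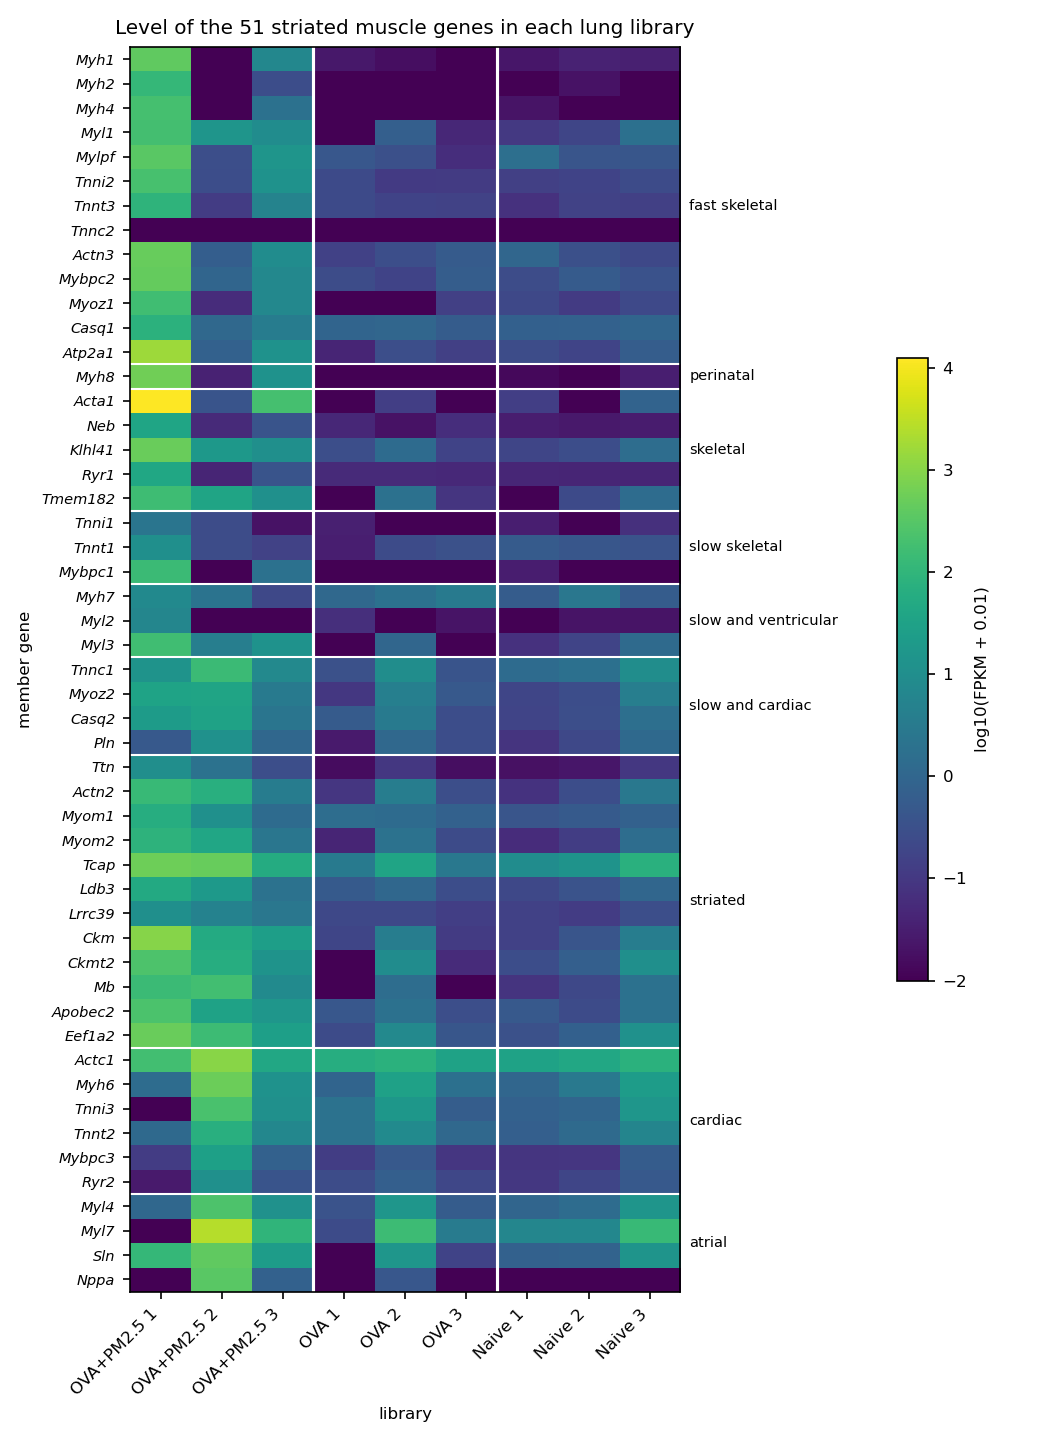
Level of each of the 51 genes (rows, grouped by the muscle type of the isoform) in each of the 9 libraries (columns), as log10(FPKM + 0.01) on a colour scale. OVA+PM2.5 replicate 1 is high in the fast skeletal, perinatal and skeletal rows, OVA+PM2.5 replicate 2 in the cardiac and atrial rows, and OVA+PM2.5 replicate 3 is intermediate in both.

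The same libraries differed in genes of other tissues. In OVA+PM2.5 replicate 1 the lung label was weakly borne out: the 9 alveolar type 2 genes summed to 153 FPKM. Their sum was 8539.7 and 707 FPKM in OVA+PM2.5 replicates 2 and 3, 4699.8 to 13959.8 FPKM in OVA and 13279 to 23770.3 FPKM in Naive lungs. The 8 airway epithelial genes summed to 24.2 FPKM in replicate 1, with 4 of the 8 (Scgb3a2, Foxj1, Dnah9 and Ccdc40) at 0, against 6785 to 197820.0 FPKM in the other 8 libraries. That library also held the 6 liver genes at a sum of 1058 FPKM (Alb 892 FPKM), against 0 to 0.748 FPKM in the other 8, and the 9 stratified epithelium genes at 407 FPKM (Krt5 179.7 FPKM), against 0.951 to 24.4 FPKM. In OVA+PM2.5 replicate 3 the 7 brown fat genes summed to 2591 FPKM (Ucp1 1308 FPKM) and the 9 adipocyte genes to 2352 FPKM (Car3 1128 FPKM). Adipocyte genes summed to 679 and 19.2 FPKM in OVA+PM2.5 replicates 1 and 2 and to 3.79 to 7.61 FPKM in OVA lungs. Their sums were 5.07, 9.62 and 135 FPKM in Naive replicates 1, 2 and 3. Brown fat genes summed to 108 and 158 FPKM in OVA+PM2.5 replicates 1 and 2, to 7.52 to 17.99 FPKM in OVA and to 3.81 to 21.1 FPKM in Naive lungs. In OVA+PM2.5 replicates 1 and 2 most of that sum was Cox8b, which muscle also makes, at 63.9 and 147 FPKM, and Ucp1 was at 22.0 and 2.10 FPKM. The part of these tissues in the muscle results was not tested.

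Actins of the thin filament showed the division most plainly. Acta1, the skeletal muscle actin, was at 11976, 0.384 and 199 FPKM in OVA+PM2.5 replicates 1, 2 and 3, against 0, 0.123 and 0 FPKM in OVA and 0.126, 0 and 0.861 FPKM in Naive lungs. Actc1, the cardiac actin, was at 176, 1066 and 46.1 FPKM in OVA+PM2.5 lungs, against 63.1, 79.3 and 31.8 FPKM in OVA and 33.0, 46.0 and 79.8 FPKM in Naive lungs. Acta1 was thus high in 2 of the 3 OVA+PM2.5 libraries and near 0 in the third, whereas Actc1 was present throughout and its groups overlapped. Per kilobase, Acta1 made up 98.8%, 0.0426% and 83.6% of the pair in OVA+PM2.5 replicates 1, 2 and 3. It made up 0.184% in OVA replicate 2 and 1.26% in Naive replicate 3, and Actc1 made up the rest. The principal transcripts of both genes share 0 words of 50 bases, so reads of that length could tell them apart.

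Myosin heavy chains, the motors, are the clearest markers of fibre type. Myh8, the perinatal chain, was at 612, 0.0276 and 13.2 FPKM in OVA+PM2.5 lungs, against 0 FPKM in every OVA lung and 0.00386, 0 and 0.0227 FPKM in Naive lungs. Myh1, a fast chain of type IIX fibres, was at 413, 0 and 6.76 FPKM, against 0.0149, 0.00681 and 0 FPKM in OVA and 0.0139, 0.0292 and 0.0238 FPKM in Naive lungs. Myh6, the chain of the adult mouse heart, was at 1.45, 535 and 12.9 FPKM, against 0.904, 30.5 and 1.79 FPKM in OVA and 1.04, 2.92 and 24.1 FPKM in Naive lungs. Among the OVA+PM2.5 libraries, replicate 1 was high in the skeletal chains, replicate 2 in Myh6, and replicate 3 held both.

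Within OVA+PM2.5 replicate 1, Myh8 made up 46.1% of the 6 heavy chains per kilobase of principal transcript, Myh1 35.0%, the IIB chain Myh4 11.1% and the IIA chain Myh2 7.05%. The slow and ventricular chain Myh7 made up 0.648% and Myh6 0.0965%. With merged exons as the length, Myh1 led with 44.5% and Myh8 had 32.0%, so the order of these 2 was not settled. In OVA+PM2.5 replicate 2, Myh6 made up 99.5%. In replicate 3, Myh8 made up 38.8%, Myh6 33.5% and Myh1 22.4%, and with merged exons Myh6 led with 39.5%, before Myh1 with 27.8% and Myh8 with 26.3%. Fast, perinatal and cardiac motors were thus side by side in that library. Myh6 made up 93.1% in OVA replicate 2 and 96.9% in Naive replicate 3. Some fragments cannot be assigned with certainty, since 19.7% of the 50-base words of Myh1 also occur in Myh2, 9.67% in Myh8, and 22.6% of those of Myh6 occur in Myh7.

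Myh7 did not follow the other cardiac genes. Its levels were 8.003, 2.06 and 0.198 FPKM in OVA+PM2.5 lungs, against 1.16, 1.84 and 3.23 FPKM in OVA and 0.588, 2.63 and 0.594 FPKM in Naive lungs. The libraries rich in Myh6 were not the ones highest in Myh7, and all 3 groups overlapped. Of its merged exon bases, 13.3% lie under exons of other genes on the opposite strand, among them the antisense gene Mhrt, and the sources used here do not say whether counting used strand.

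**Figure D2:**
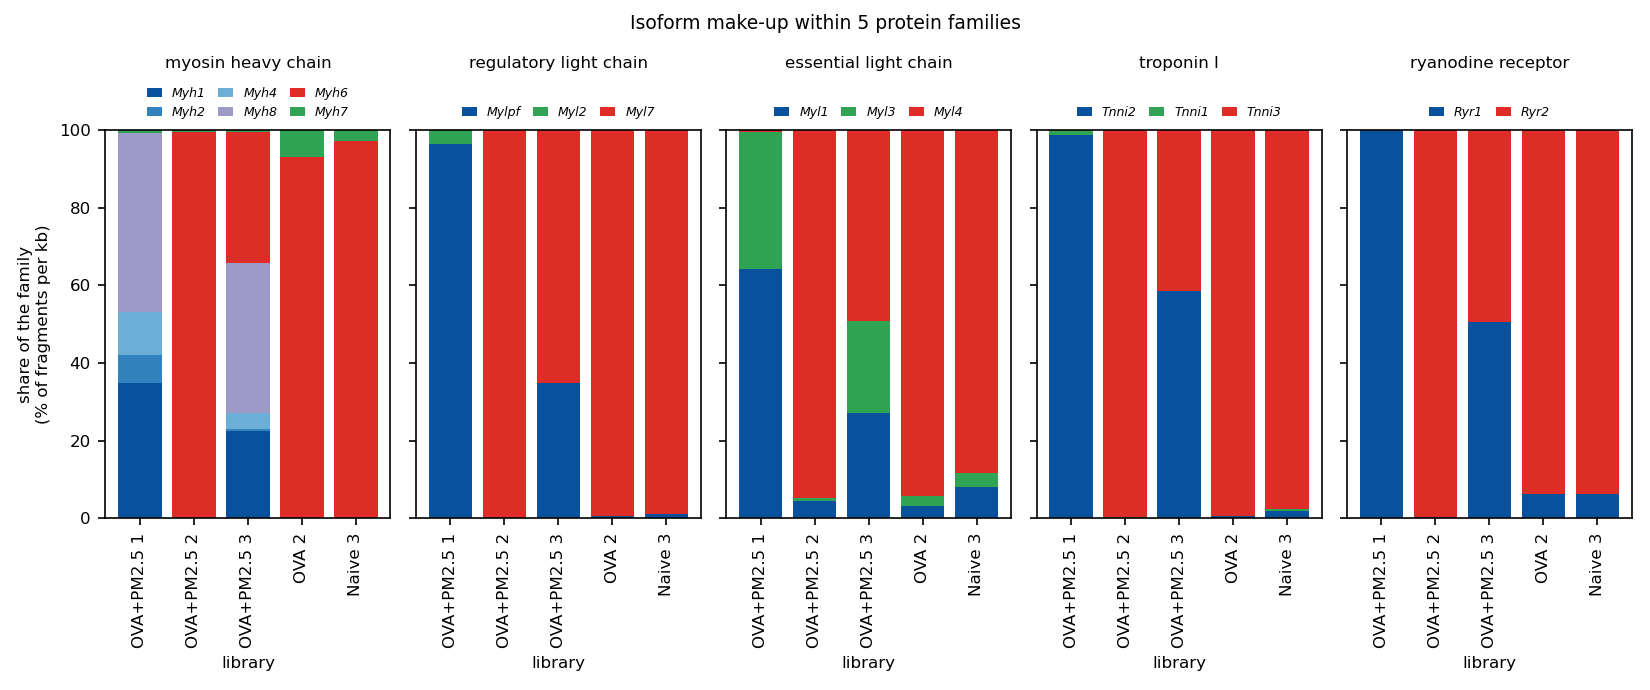
Isoform shares within 5 families, as per cent of fragments per kilobase of principal transcript (bars, y axis), in the 5 libraries with at least 100 fragments in each family (x axis). Blue marks fast skeletal, violet perinatal, green slow or ventricular and red cardiac or atrial isoforms (Ryr1 blue, Ryr2 red). OVA+PM2.5 replicate 1 is nearly all skeletal, OVA+PM2.5 replicate 2, OVA replicate 2 and Naive replicate 3 are nearly all cardiac, and OVA+PM2.5 replicate 3 is mixed.

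Regulatory light chains sit on the myosin neck and separate atrium from ventricle. Myl7, the atrial one, was at 0, 2649.9 and 95.9 FPKM in OVA+PM2.5 lungs, against 0.235, 154 and 3.38 FPKM in OVA and 6.36, 6.58 and 130.3 FPKM in Naive lungs. Myl2, the ventricular and slow one, was at 6.25, 0 and 0 FPKM, against 0.0580, 0 and 0.0115 FPKM in OVA and 0, 0.0114 and 0.0106 FPKM in Naive lungs. Mylpf, the fast skeletal one, was at 343, 0.279 and 15.0 FPKM, against 0.454, 0.293 and 0.0528 FPKM in OVA and 1.67, 0.392 and 0.414 FPKM in Naive lungs. The ventricular light chain was thus at 0 or near it in the 4 libraries richest in Myl7. Actc1 did not always go with Myl7, since OVA replicate 1 held 63.1 FPKM of Actc1 and 0.235 FPKM of Myl7. The 0 fragments of Myl7 in OVA+PM2.5 replicate 1 allow a level of up to 0.363 FPKM, taking 3 fragments as the limit of a count of 0.

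Essential light chains gave the same division with more mixing. Myl4, the atrial one, was at 1.08, 246 and 12.3 FPKM in OVA+PM2.5 lungs, against 0.362, 15.9 and 0.597 FPKM in OVA and 0.951, 1.39 and 14.9 FPKM in Naive lungs. Myl1, of fast fibres, was at 188, 15.5 and 9.08 FPKM, against 0, 0.705 and 0.0375 FPKM in OVA and 0.0941, 0.173 and 1.82 FPKM in Naive lungs. Myl3, of slow fibres and ventricles, was at 167, 4.06 and 12.7 FPKM, against 0, 1.00 and 0 FPKM in OVA and 0.0649, 0.171 and 1.27 FPKM in Naive lungs. Both Myl1 and Myl3 were above every OVA and Naive library in all 3 OVA+PM2.5 libraries. In the atrial library, OVA+PM2.5 replicate 2, Myl1 made up 4.44% and Myl3 0.725% of the 3 essential light chains per kilobase, with Myl4 at 94.8%.

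Troponin I, which holds contraction off until calcium arrives, was read from 3 genes. Tnni2, the fast isoform, was at 206, 0.265 and 12.7 FPKM in OVA+PM2.5 lungs, against 0.226, 0.0974 and 0.105 FPKM in OVA and 0.136, 0.156 and 0.243 FPKM in Naive lungs. Tnni3, the cardiac isoform, was at 0, 229 and 11.5 FPKM, against 1.99, 16.9 and 0.637 FPKM in OVA and 0.773, 0.953 and 16.0 FPKM in Naive lungs. Tnni1, the slow isoform, was at 2.36, 0.251 and 0.00948 FPKM in OVA+PM2.5 lungs and at 0 to 0.0585 FPKM elsewhere. Fast troponin I thus made up 98.7% of the 3 in OVA+PM2.5 replicate 1 per kilobase, cardiac troponin I 99.7% in replicate 2, and replicate 3 held 58.4% fast and 41.5% cardiac. Troponin T, which ties the complex to tropomyosin, split alike: the fast gene Tnnt3 made up 94.8%, 0.223% and 52.4% in OVA+PM2.5 replicates 1, 2 and 3, and the cardiac gene Tnnt2 0.853%, 99.6% and 47.0%. With merged exons as the length, Tnnt3 made up 81.5% in replicate 3. The slow gene Tnnt1 reached 4.35% in replicate 1. Tnnc1, the slow and cardiac troponin C, was at 13.7, 147 and 7.24 FPKM in OVA+PM2.5 lungs, against 0.318, 9.93 and 0.385 FPKM in OVA and 1.32, 1.73 and 9.98 FPKM in Naive lungs. Its fast partner Tnnc2 was listed at 0 even beside high Tnni2 and Tnnt3, and its level was not read from these values. Exons of Ube2c on the opposite strand cover 74.0% of its merged exon bases, and the cause of the 0 was not tested. Opposite-strand exons also cover 64.7% of these bases in Pln, 61.5% in Nppa, 31.9% in Mb and 21.9% in Atp2a1, which were not at 0 throughout. The part of such overlap in their levels was not tested.

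Slow skeletal genes took a smaller share of fragments than fast ones. One of them, Mybpc1, the slow myosin binding protein C, was at 146, 0 and 1.89 FPKM in OVA+PM2.5 lungs, against 0 FPKM in all OVA lungs and 0.0202, 0 and 0 FPKM in Naive lungs. Per kilobase it made up 53.3% of its family in OVA+PM2.5 replicate 1 (49.7% with merged exons), next to 46.7% for the fast gene Mybpc2. The cardiac gene Mybpc3 made up 0.0292% there and 98.7% in replicate 2. As classes, the 13 fast skeletal genes took 2.81%, 0.0103% and 0.0574% of all fragments in OVA+PM2.5 replicates 1, 2 and 3, and the 3 slow skeletal genes 0.245%, 0.000449% and 0.00317%. The 6 cardiac genes took 0.0359%, 1.32% and 0.0487%, and the 4 atrial genes 0.0158%, 0.453% and 0.0194%. In replicate 1, Sln gave 2086 of the 2217 atrial fragments, with Myl7 and Nppa at 0. Mybpc1 gave 32647 of the 34339 slow skeletal fragments in replicate 1 and 367 of 385 in replicate 3, so that class rests mostly on 1 gene. In lungs outside the OVA+PM2.5 group the fast skeletal share was 0.00119% to 0.00242%, whereas the atrial share was 0.0250% in OVA replicate 2 and 0.0225% in Naive replicate 3, against 0.000326% to 0.00170% in the other 4. The 95% binomial interval (Wilson) of the fast skeletal share in OVA+PM2.5 replicate 1 was 2.80% to 2.82%, and that of the atrial share in OVA replicate 1, from 47 fragments, was 0.000246% to 0.000434%, for counting error only.

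**Figure D3:**
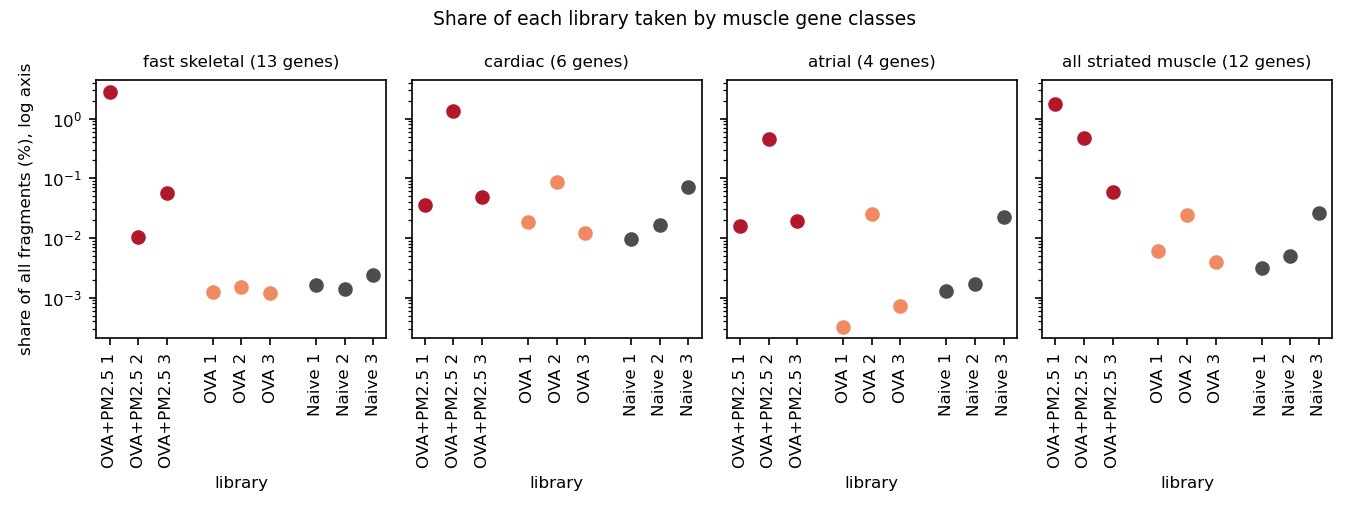
Share of all fragments taken by 4 classes of muscle genes (panels), in per cent on a log axis, in each of the 9 libraries (points, coloured by group). Fast skeletal genes stand out in OVA+PM2.5 replicates 1 and 3, and genes common to striated muscle in all 3. Atrial genes are highest in OVA+PM2.5 replicate 2, and OVA+PM2.5 replicates 1 and 3, OVA replicate 2 and Naive replicate 3 lie above the other 4.

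Giant filament, Z-disc and M-line proteins include members shared between muscles and members of skeletal muscle. Ttn, the molecular spring titin, was at 10.6, 1.99 and 0.289 FPKM in OVA+PM2.5 lungs, against 0.00619, 0.0900 and 0.00642 FPKM in OVA and 0.00838, 0.0130 and 0.0887 FPKM in Naive lungs. Neb, the skeletal thin-filament ruler nebulin, was at 38.8, 0.0427 and 0.376 FPKM, against 0.0378, 0.00988 and 0.0540 FPKM in OVA and 0.0201, 0.0159 and 0.0186 FPKM in Naive lungs. Titin therefore was above all OVA and Naive lungs in each OVA+PM2.5 library, and nebulin only in replicates 1 and 3. At the Z disc, Actn2 is shared between striated muscles and Myoz2 is used in heart and slow fibres. Beside their fast partners Actn3 and Myoz1, they made up 36.5% and 32.5% of their families per kilobase in OVA+PM2.5 replicate 1. In replicate 2 Actn2 and Myoz2 made up 99.6% and 99.9%. Tcap, the titin cap, was at 557, 472 and 55.2 FPKM in OVA+PM2.5 lungs, against 3.15, 35.7 and 2.76 FPKM in OVA and 9.01, 13.9 and 73.3 FPKM in Naive lungs, so Naive replicate 3 lay above 1 OVA+PM2.5 library. Of the M-line genes, Myom2 was at 86.2, 39.8 and 2.44 FPKM, against 0.0325, 2.00 and 0.238 FPKM in OVA and 0.0484, 0.121 and 1.52 FPKM in Naive lungs, with no overlap. Myom1 was at 64.2, 11.2 and 1.34 FPKM, against 1.52, 1.32 and 0.771 FPKM in OVA and 0.402, 0.520 and 0.769 FPKM in Naive lungs, and its OVA+PM2.5 and OVA groups overlapped.

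Calcium release, storage and uptake carried the same signature. Ryr1, the skeletal release channel, was at 42.6, 0.0332 and 0.375 FPKM in OVA+PM2.5 lungs, against 0.0437, 0.0445 and 0.0395 FPKM in OVA and 0.0360, 0.0318 and 0.0319 FPKM in Naive lungs. Ryr2, the cardiac channel, was at 0.0171, 11.3 and 0.381 FPKM, against 0.253, 0.682 and 0.189 FPKM in OVA and 0.0896, 0.179 and 0.503 FPKM in Naive lungs. Ryr1 was thus 99.96% of the pair per kilobase in OVA+PM2.5 replicate 1 and 0.306% in replicate 2, and the channels were almost even in replicate 3, at 50.6% and 49.4%. Atp2a1, the calcium pump of fast fibres, was at 1648, 0.762 and 12.6 FPKM in OVA+PM2.5 lungs, against 0.0334, 0.275 and 0.132 FPKM in OVA and 0.249, 0.164 and 0.610 FPKM in Naive lungs. Sln, the pump inhibitor sarcolipin of mouse atria and some skeletal fibres, was at 113, 403 and 23.2 FPKM, against 0, 16.3 and 0.156 FPKM in OVA and 0.785, 0.878 and 14.4 FPKM in Naive lungs. The related inhibitor Pln was at 0.502, 12.4 and 1.09 FPKM, against 0.0174, 1.13 and 0.268 FPKM in OVA and 0.0731, 0.197 and 1.23 FPKM in Naive lungs. Sarcolipin was high in skeletal and atrial libraries alike and phospholamban, in the skeletal one, lay within the range of the OVA lungs. Casq1 and Casq2, the fast and cardiac calcium stores, ranged over 1.13 to 85.3 and 2.37 to 33.0 FPKM in OVA+PM2.5 lungs, against 0.578 to 1.05 and 0.261 to 3.01 FPKM in OVA and 0.738 to 0.972 and 0.164 to 1.69 FPKM in Naive lungs.

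Energy genes were high in both kinds of library. Ckm, the muscle creatine kinase that buffers ATP, was at 992, 53.3 and 25.6 FPKM in OVA+PM2.5 lungs, against 0.179, 3.76 and 0.104 FPKM in OVA and 0.139, 0.396 and 3.92 FPKM in Naive lungs. Mb, the oxygen store myoglobin, was at 145, 183 and 8.33 FPKM, against 0, 1.504 and 0 FPKM in OVA and 0.0715, 0.196 and 1.85 FPKM in Naive lungs. Ckmt2, the mitochondrial creatine kinase, was at 243, 64.2 and 13.9 FPKM, against 0, 9.33 and 0.0463 FPKM in OVA and 0.261, 0.687 and 10.7 FPKM in Naive lungs. None of the 3 overlapped between OVA+PM2.5 and the other groups. Nppa, the atrial natriuretic hormone gene, was at 0, 352 and 0.761 FPKM in OVA+PM2.5 lungs, against 0, 0.441 and 0 FPKM in OVA and 0 FPKM in every Naive lung. It was abundant in 1 library alone.

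Among the 4 libraries with atrial genes, the relative levels of several members were alike although the absolute level of Myl7 ran from 95.9 to 2649.9 FPKM. In OVA+PM2.5 replicates 2 and 3, OVA replicate 2 and Naive replicate 3, the FPKM of Myl4 was 9.30%, 12.8%, 10.4% and 11.4% of that of Myl7. The share for Ryr2 was 0.425%, 0.397%, 0.443% and 0.386%, and for Tnni3 8.63%, 12.0%, 11.01% and 12.3%. Myh6 stood at 20.2%, 13.5%, 19.8% and 18.5%. These ratios spanned 1.149 to 1.499 times, the highest over the lowest, and they describe 4 libraries picked for holding Myl7. Nppa did not keep such a ratio, at 13.3% and 0.793% in OVA+PM2.5 replicates 2 and 3, 0.287% in OVA replicate 2 and 0% in Naive replicate 3. Myoglobin stood at 6.91% and 8.69% in the OVA+PM2.5 libraries, against 0.978% in OVA replicate 2 and 1.42% in Naive replicate 3. Myl4, Ryr2, Tnni3 and Myh6 were picked for their narrow span after their values were seen. Wider spans were found for Sln at 2.28 times, Pln at 2.45, Tnnt2 at 2.64, Tcap at 3.23 and Mybpc3 at 3.30. Among the members compared, the widest were Myl3 at 86.4 times, Myl1 at 20.7 and Klhl41 at 17.5, and no test was made between single libraries. In OVA+PM2.5 replicate 2, Bmp10, an atrial growth factor, was at 740.5 FPKM and Nppb, another natriuretic hormone gene, at 196 FPKM, against 0 to 0.0565 and 0 to 0.421 FPKM in the other 8 libraries, and both were picked after their values were seen.

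**Figure D4:**
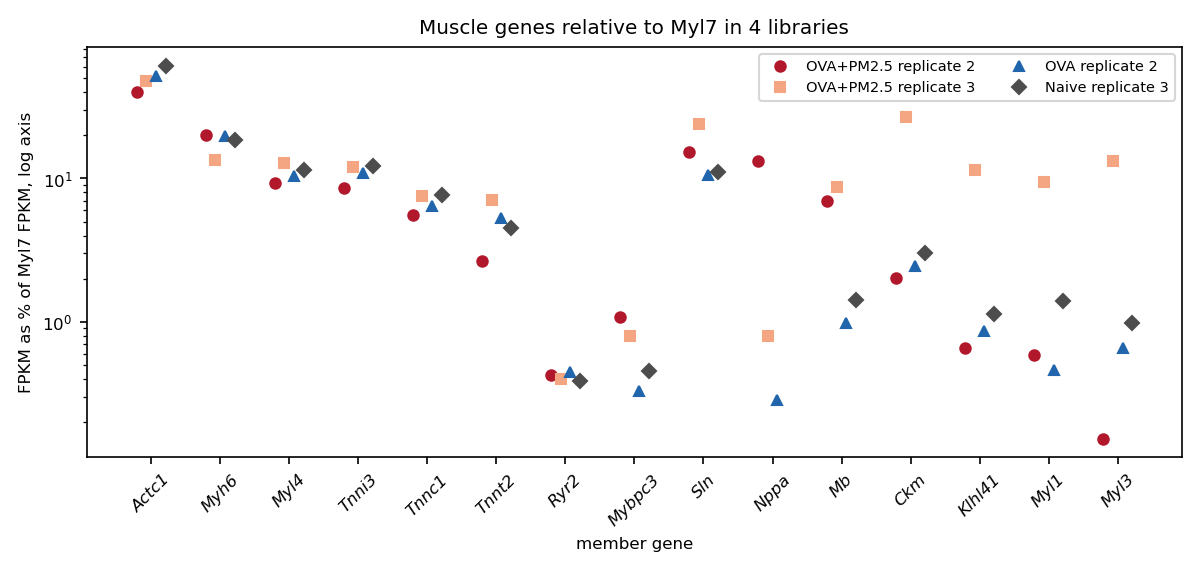
Level of 15 members (x axis) as per cent of the Myl7 FPKM of the same library, on a log axis, in OVA+PM2.5 replicates 2 and 3, OVA replicate 2 and Naive replicate 3 (symbols). Values at 0 are not drawn. FPKM does not compare genes with each other, so only the span of a gene across libraries is read. Ryr2 lies at 0.386% to 0.443% in all 4, whereas Nppa falls to 0.287% or less in OVA replicate 2 and Naive replicate 3, against 13.3% in OVA+PM2.5 replicate 2.

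The skeletal transcripts of OVA+PM2.5 replicates 1 and 3 differed in amount and also in balance. Acta1 was 60.3 times, Myh1 61.0 times and Myh8 46.5 times as high in replicate 1 as in replicate 3. Ratios were larger for Myh2, at 429 times, and for Atp2a1, at 131 times. They were smaller for Tnni2, at 16.2 times, and Tnnt3, at 17.96 times. The fast genes did not differ by 1 common factor between these 2 libraries, and no test was made between single libraries.

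OVA+PM2.5 lungs were compared with OVA lungs to ask what particles added to the allergic lung. A filter of at least 0.5 FPKM in at least 3 of 9 libraries left 35 of the 51 members. Of these, 18 passed only through the OVA+PM2.5 libraries, and 14 of the 16 that failed it reached 0.5 FPKM in OVA+PM2.5 replicate 1, so the tested members are not a neutral sample of the list. With limma and Benjamini-Hochberg adjustment, 1 of 35 was called at 0.05, and the background was 0.216% of 12982 genes called (28 genes, of which 25, or 0.193%, were higher and 3, or 0.0231%, lower). The called gene was Lrrc39, a protein of the M line that binds myosin, and it is one of the 18 that passed the filter only through the OVA+PM2.5 libraries. It was at 10.98, 5.02 and 2.59 FPKM in OVA+PM2.5 lungs, against 0.198, 0.202 and 0.127 FPKM in OVA and 0.141, 0.114 and 0.276 FPKM in Naive lungs. All 3 OVA+PM2.5 libraries lay above all others. Its log2 fold change was 3.11 ± 0.41 (SE), with an adjusted p of 0.0329. Exons of other genes on the opposite strand cover 35.8% of its merged exon bases, and Trmt13, the named gene among these, was at 0.142 to 0.413 FPKM in OVA+PM2.5, 0.134 to 0.506 FPKM in OVA and 0.389 to 0.427 FPKM in Naive lungs.

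No other member passed, although the differences were large. Apobec2, a muscle-restricted relative of the cytidine deaminases, was at 229.7, 32.8 and 16.2 FPKM in OVA+PM2.5 lungs, against 0.440, 1.903 and 0.277 FPKM in OVA lungs, a log2 fold change of 5.38 ± 0.92 with an adjusted p of 0.0555. Tmem182, a membrane protein of muscle, was at 158, 37.5 and 11.8 FPKM, against 0, 1.85 and 0.0759 FPKM, with 5.58 ± 0.96 and an adjusted p of 0.0577. Acta1 had a log2 fold change of 7.90 ± 2.70 with an adjusted p of 0.118, and Myl7 one of 2.73 ± 3.03 with an adjusted p of 0.583. Both differed widely between the OVA+PM2.5 libraries and had larger errors than Lrrc39. The groups did not overlap for 19 of 35 members, all higher, with a background of 6.86% of genes higher without overlap. At an unadjusted p under 0.05 there were 24 of 35 members and 3499 of 12982 genes (27.0%). These member counts are set partly by the filter, since 13 of the 19 passed it only through the OVA+PM2.5 libraries.

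The call of Lrrc39 depended on the libraries and on the fit. Its adjusted p was 0.0034 to 0.0209 without any 1 OVA+PM2.5 library and 0.0900 to 0.209 without any 1 OVA library, by limma. It was 0.0936 to 0.0990 without any 1 Naive library. A fit of the 6 libraries compared gave an adjusted p of 0.239, no filter 0.0649, the replicate block 0.0951 and voom on the recovered fragments 0.103. The number of members called was 4 without OVA+PM2.5 replicate 1, 16 without replicate 2 and 11 without replicate 3, and 0 without any 1 OVA or Naive library. Calls over all 12982 genes moved too, to 67, 3295 and 201 without OVA+PM2.5 replicates 1, 2 and 3. All-gene calls were 11 without OVA replicate 1 and 0 without any other OVA or Naive library. The changes in the member counts are therefore not read as a result about the members.

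OVA+PM2.5 lungs were also set against Naive lungs, the comparison of both exposures with none. Here 10 of 35 members were called, all higher, with a background of 7.12% of genes called (924 genes, of which 198, or 1.53%, were higher and 726, or 5.59%, lower). Median-ratio scaling of the libraries called 165 genes higher and 101 lower, and quantile scaling 209 higher and 182 lower, with 5 and 6 members called. Of the 10 members, 8 (all but Eef1a2 and Ldb3) passed the filter only through the OVA+PM2.5 libraries, so their number is set partly by the filter and is not read against the background. With no filter, with voom on the recovered fragments or with the replicate number as a block, 1 of the 10 remained, which was Lrrc39. Lrrc39 had a log2 fold change of 3.11 ± 0.41 with an adjusted p of 0.0181. Apobec2 was at 0.484, 0.235 and 1.899 FPKM in Naive lungs, below every OVA+PM2.5 value given above, and rose by 5.39 ± 0.92 (adjusted p 0.0293). Tmem182 was at 0, 0.226 and 1.45 FPKM in Naive lungs and rose by 5.56 ± 0.96 (adjusted p 0.0293). All 3 OVA+PM2.5 libraries were above all 3 Naive libraries for each.

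The other 7 called genes were 2 light chains and 5 genes of energy supply, filament upkeep, translation and the Z disc. Mb rose by 5.98 ± 1.14 (adjusted p 0.0340), Ckm by 6.36 ± 1.38 (0.0397) and the light chains Myl1 and Myl3 by 4.97 ± 1.04 (0.0385) and 4.62 ± 1.16 (0.0488), as log2 fold changes with limma's adjusted p. Klhl41, a kelch protein that stabilises nebulin, was at 499, 17.5 and 11.1 FPKM in OVA+PM2.5 lungs, against 0.179, 0.269 and 1.48 FPKM in Naive lungs, and rose by 5.54 ± 1.25 (adjusted p 0.0427). Eef1a2, the translation elongation factor of muscle and neurons, was at 519, 151 and 27.7 FPKM in OVA+PM2.5 lungs, against 0.310, 0.751 and 12.4 FPKM in Naive lungs, and rose by 5.79 ± 1.39 (adjusted p 0.0452). Ldb3, a Z-disc protein, was at 52.0, 18.9 and 1.97 FPKM in OVA+PM2.5 lungs, against 0.199, 0.360 and 1.02 FPKM in Naive lungs, and rose by 3.81 ± 0.94 (adjusted p 0.0467). Each of the 10 was above all Naive libraries in 3 of 3 OVA+PM2.5 libraries.

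**Figure D5:**
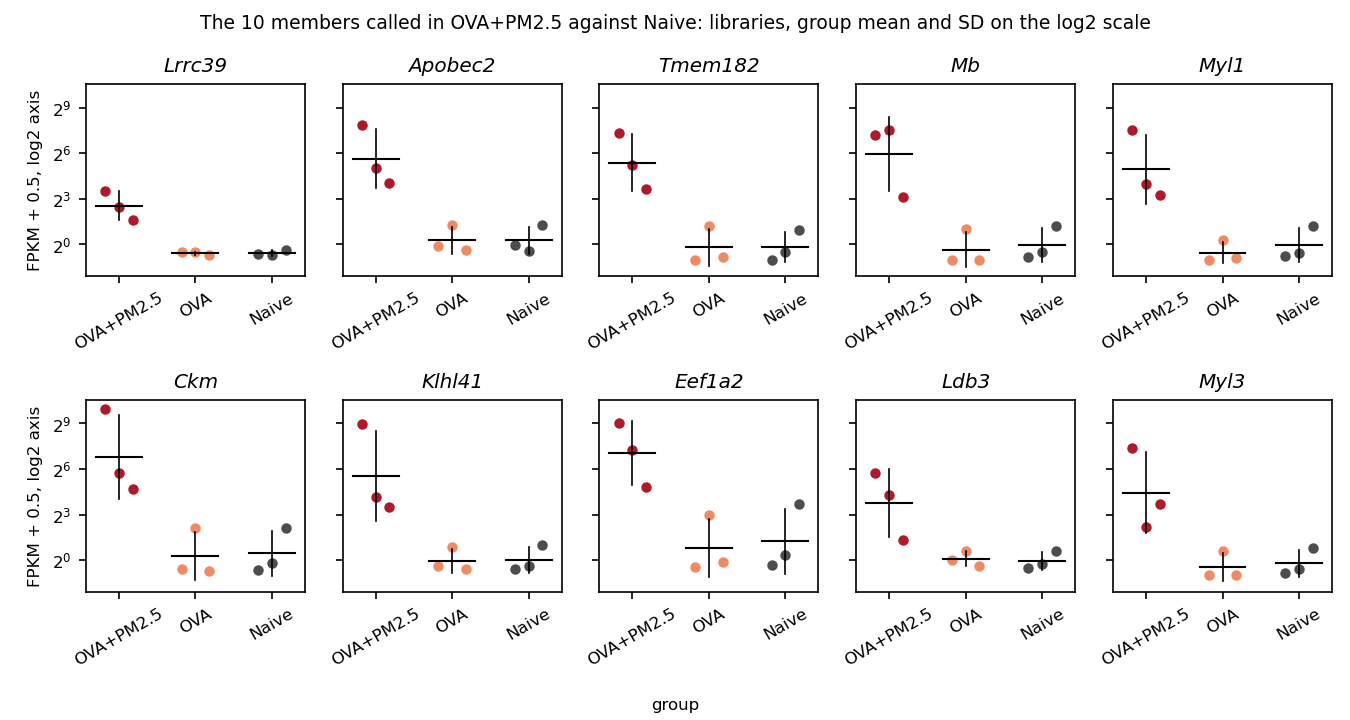
The 10 members called in OVA+PM2.5 against Naive lungs (panels), as FPKM + 0.5 on a log2 axis by group (x axis). Points are libraries, horizontal lines group means and vertical lines 1 SD on the log2 scale (n = 3). All OVA+PM2.5 points lie above all Naive points, and 1 OVA and 1 Naive library often lie above the rest of their group.

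Acta1 and Myl7, typical of skeletal muscle and of the atrium, were not called. Against Naive lungs Acta1 had a log2 fold change of 7.41 ± 2.70 with an adjusted p of 0.0962 by limma, and Myl7 one of 1.44 ± 3.03 with an adjusted p of 0.752. Without overlap were 19 of 35 members, all higher, against a background of 6.83% of genes higher without overlap. Of these 19, 12 passed the filter only through the OVA+PM2.5 libraries. Member calls fell to 4 without OVA+PM2.5 replicate 1 and rose to 17 without replicate 2 and 13 without replicate 3. Calls over all genes were then 143, 4248 and 418, beside 924 with all libraries. Member calls fell to 1 without any 1 OVA library, with 52, 38 and 43 of all genes called without OVA replicates 1, 2 and 3. Without any 1 Naive library and in a fit of the 6 libraries compared, 0 members and 0 of all genes were called. The member counts thus moved with calls over all genes. The comparison shares its OVA+PM2.5 libraries with the one against OVA, so the 2 are not independent.

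OVA lungs against Naive lungs, the effect of the ovalbumin protocol alone, showed no called member. By limma 0 of 35 passed, against a background of 0.0154% of genes (2 genes, both lower), and 0 members had an unadjusted p under 0.05. The smallest adjusted p was 0.661, for Tcap, with a log2 fold change of −1.52 ± 1.23. Myl7 was high in a single library of each group, at 154 FPKM in OVA replicate 2 and 130.3 FPKM in Naive replicate 3, and its log2 fold change was −1.28 ± 3.03 with an adjusted p of 0.901. Myom1 alone did not overlap, at 1.52, 1.32 and 0.771 FPKM in OVA and 0.402, 0.520 and 0.769 FPKM in Naive lungs (1 of 35, beside a background of 11.2% of genes higher without overlap). A voom fit on the recovered fragments also called 0 members in this comparison. A limma fit of these 6 libraries alone called 0 members too, with 1 of 35 at an unadjusted p under 0.05. That fit called 895 of 12982 genes, 387 higher and 508 lower. The fit of all 9 libraries takes its spread from the OVA+PM2.5 libraries as well, so the background of 2 genes depends on the fit. With a standard error of 3.03 log2 units for Myl7, a difference of several-fold in that gene would not have been detectable here.

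Further muscle genes were read from lists drawn up beside the members. The backgrounds are the same, 0.216% of genes called against OVA and 7.12% against Naive (1.53% higher). Of the genes called against Naive, Srl, Smpx, Mylk4, Cmya5 and Phkg1 passed the filter only through the OVA+PM2.5 libraries. The counts called are thus set partly by the filter and are not read against these backgrounds. Of 22 genes of excitation and the triad, where nerve signals reach the calcium stores, 13 were tested, and 1 was called against Naive and 0 against OVA. That 1 was Srl, the calcium store protein sarcalumenin, at 107, 51.6 and 6.03 FPKM in OVA+PM2.5 lungs, against 0.156, 2.17 and 0.141 FPKM in OVA and 0.484, 0.446 and 2.22 FPKM in Naive lungs. It had a log2 fold change of 4.996 ± 1.01 against OVA (adjusted p 0.0689) and of 4.61 ± 1.01 against Naive (adjusted p 0.0401). Hrc, a histidine-rich calcium-binding protein, had 4.56 ± 1.205 against OVA (adjusted p 0.0875). Cacna1s, the calcium channel of the skeletal triad, was at 40.4, 0.0263 and 0.151 FPKM in OVA+PM2.5 lungs and at 0 to 0.00814 FPKM elsewhere, and it was picked after its values were seen.

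Of 34 other sarcomere and costamere genes, 33 were in the table and 22 were tested, with 0 called against OVA and 3 against Naive, which were Smpx, the kinase gene Mylk4 and Cmya5. Smpx, a small costamere protein, had a log2 fold change of 4.21 ± 0.80 against OVA (adjusted p 0.0622) and 4.23 ± 0.80 against Naive (adjusted p 0.0340). Smyd1, a methyltransferase needed for myosin assembly, had 3.48 ± 0.81 against OVA (adjusted p 0.0827). The embryonic heavy chain Myh3, looked at after the high Myh8 was seen, was at 0.0137 to 0.250 FPKM in OVA+PM2.5, 0.00353 to 0.0116 FPKM in OVA and 0.00756 to 0.0387 FPKM in Naive lungs. Of 19 muscle metabolism genes 17 were tested, with 0 called against OVA and 6 against Naive. Pgam2, the muscle phosphoglycerate mutase, had 4.23 ± 0.69 against OVA (adjusted p 0.0518), and Fabp3, the heart fatty acid binding protein, 4.62 ± 0.78 (adjusted p 0.0555). The 6 called against Naive were these 2, Phkg1, Pfkm, Cox7a1 and Cox8b, of which Cox8b, a subunit of cytochrome oxidase in muscle and brown fat, was at 63.9, 147 and 704 FPKM in OVA+PM2.5 lungs, against 1.16, 11.3 and 0.573 FPKM in OVA and 2.70, 2.27 and 15.9 FPKM in Naive lungs. It is also on the brown fat list, and the part of brown fat in its level was not tested. Of these lists 0 genes were called in OVA against Naive lungs.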

How the data were processed

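Lung mRNA of 9 mice (3 OVA+PM2.5, 3 OVA and 3 Naive) was sequenced after poly-T selection and a NEBNext Ultra library, per the labels' protocols. The authors deposited 1 table of FPKM per gene and library. The submitters' processing notes name GRCm39, and the sources used here do not give the aligner, the counter or the use of strand. Fragments were recovered from the FPKM steps and compared with transcript lengths of GENCODE M21 (Python 3.11.15, pandas 2.3.3). Totals of 12159535 to 15764579 fragments set the precision, and limits for a count of 0 cover counting error only.

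Groups were compared on log2(FPKM + 0.5), for genes at 0.5 FPKM or more in at least 3 libraries, with limma 3.58.1 (R 4.3.3) in 1 fit of all 9 libraries with a trended prior. A fold change on this scale understates the change of low genes. P-values were adjusted by Benjamini-Hochberg over 12982 genes, with a threshold of 0.05. The fit was tested on simulated data with the same spread of a gene in all 3 groups. The groups here differ in spread, as for Acta1, with an SD of 6858 FPKM in OVA+PM2.5, 0.0712 in OVA and 0.465 in Naive lungs. The simulation therefore does not show how the fit behaves under unequal spread.

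The alternatives were pseudocounts of 0.1 and 1, no filter, 3 scalings, a fit of 2 groups, the replicate number as a block, voom on fragments and leaving out each library. Lengths of principal transcripts and merged exons were added after the data were seen. Members and gene lists were chosen with earlier results of these data known. Any member could be named, and of each other list the 2 genes with the smallest p in OVA+PM2.5 against OVA, with the highest gene of each tissue list, and some results under this rule are not reported here.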

Additional observations from a re-analysis of the deposited data

How the results depend on the processing

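Member calls are given for OVA+PM2.5 against OVA and against Naive, beside 1 and 10 as reported, with all genes called in OVA+PM2.5 against OVA, OVA+PM2.5 against Naive and OVA against Naive, beside 28, 924 and 2. The fit of 2 groups called 0 and 0 members and 0, 0 and 895 genes. Scaling to a common sum called 5 and 14 members and 99, 1638 and 40 genes, median-ratio scaling 4 and 5 members and 100, 266 and 3 genes, and quantile scaling 5 and 6 members and 138, 391 and 18 genes. Without a filter there were 0 and 1 members and 12, 157 and 0 genes, with a pseudocount of 0.1 there were 1 and 6 members and 19, 488 and 1 genes, and with a pseudocount of 1 there were 1 and 8 members and 27, 1016 and 20 genes. Voom on fragments called 0 and 1 members and 21, 402 and 2 genes. The replicate block called 0 and 1 members and 0, 50 and 0 genes, and same-numbered libraries correlated by −0.171 to 0.278, over 0.1 in 3 of 9 pairs, so the numbers were not taken as pairs.

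Leaving out 1 library gave 0 to 16 and 0 to 17 members and 0 to 3295, 0 to 4248 and 0 to 54 genes. In OVA against Naive 0 members were called under every setting tried. The log2 fold change of Myl7 turned to −0.13 against OVA and −1.42 against Naive without OVA+PM2.5 replicate 2, and to 0.40 and 0.13 in OVA against Naive without OVA replicate 1 and without Naive replicate 3. Over all left-out libraries it ran from −0.13 to 6.05 against OVA, from −1.42 to 4.77 against Naive, and from −3.45 to 0.40 in OVA against Naive. The cause was not tested. Over all fold changes printed for members, Myl7 among them, only a left-out library turned a direction, in the 4 cases of Myl7 given above. Under the other settings 167 were on the same side of the threshold, 56 no longer past it and 11 newly past it. The median over all genes moved from log2 fold changes of −0.23 against OVA and −0.33 against Naive to −0.02 and −0.04 under median-ratio scaling. The leading isoform was the same by FPKM and by principal transcript in 74 of 81 pairs of family and library, and by principal transcript and merged exons in 73.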

Other observations

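Of 20 transcription factor genes of muscle, 9 were tested and 0 were called in any comparison. Hand2 had a log2 fold change of 2.11 ± 0.54 against OVA (adjusted p 0.0852 by limma) and Hopx −3.37 ± 1.09 (adjusted p 0.110). Hopx was high in every OVA and Naive lung, at 37.0, 118.7 and 82.8 FPKM in OVA and 81.0, 89.8 and 94.5 FPKM in Naive. In OVA+PM2.5 replicates 1, 2 and 3 it was at 1.27, 54.5 and 2.98 FPKM, so it did not follow the muscle genes. The myogenic factors Myod1, Myog and Myf6, picked after their values were seen, were at 7.37, 7.35 and 21.7 FPKM in OVA+PM2.5 replicate 1, against 0 to 0.133, 0 to 0.216 and 0 to 1.63 FPKM in the other 8 libraries. Nkx2-5 and Tbx5, cardiac factors picked likewise, were at 25.0 and 23.0 FPKM in OVA+PM2.5 replicate 2, against 0 to 0.352 and 0.248 to 8.70 FPKM in the other 8 libraries, and Tbx5 was present in every OVA and Naive lung. Of 14 atrial and conduction genes 9 were tested and 0 called, with the smallest p for Gja1, at 1.09 ± 0.35 (adjusted p 0.106), and Nr2f2, at −0.97 ± 0.36 (adjusted p 0.133). Of 9 genes of the nerve-muscle junction 3 were tested and 0 called, with Rapsn at 1.05 ± 0.49 (adjusted p 0.205) and Chrnb1 at −0.35 ± 0.40 (adjusted p 0.596).

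In the lists of other tissues 0 genes were called against OVA. Against Naive lungs, 2 of 5 tested brown fat genes, 1 of 8 adipocyte genes and 1 of 5 red cell genes were called higher, and 2 of 5 peripheral nerve genes lower, beside 1.53% of all genes higher and 5.59% lower. As log2 fold changes against OVA, Ppargc1a and Cox8b had 1.63 ± 0.26 and 6.09 ± 1.15, Plin4 and Fabp4 2.84 ± 0.46 and 5.37 ± 1.47, Hba-a1 and Hbb-bt 3.57 ± 0.63 and 3.95 ± 0.70, and Pmp22 −1.22 ± 0.44. For lung epithelium, Sftpb and Sftpd had −4.10 ± 1.23 and −3.22 ± 1.05, and Ccdc40 and Dnah9 −2.10 ± 0.55 and −1.92 ± 0.53. Smooth muscle genes Actg2 and Cnn1 had −1.87 ± 0.48 and −2.14 ± 0.63, endothelial genes Cldn5 and Kdr −1.78 ± 0.98 and −0.63 ± 0.39, stratified epithelial genes Krt5 and Krt14 3.89 ± 2.04 and 2.29 ± 1.37, and thymus genes Cd1d1 and Cd8b1 1.27 ± 0.74 and −0.11 ± 1.33. The highest single levels were 1146 FPKM for Des in OVA+PM2.5 replicate 1, 6073 FPKM for Hbb-bs in OVA+PM2.5 replicate 3, 194270.0 FPKM for Scgb1a1 in OVA replicate 1, 19607 FPKM for Sftpc in Naive replicate 2, 547 FPKM for Cldn5 and 143 FPKM for Cd8b1 in Naive replicate 1, and 108 FPKM for Pmp22 in Naive replicate 3.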
